A study of Homo sapiens with 8 samples.

Results

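The leukocyte beta2 integrins are surface receptors made of 1 of 4 alpha subunits and a shared beta subunit. The genes described here are those whose symbol in the deposited count table equals ITGAL (CD11a), ITGAM (CD11b), ITGAX (CD11c), ITGAD (CD11d) or ITGB2 (CD18): 5 of the 57992 genes listed. They were measured by mRNA sequencing in 2 human acute myeloid leukaemia lines. KG1A is a line of immature CD34-bearing cells and U937 a line of monoblast character. Either line received 10 mM of an agent named only as dG in the labels, or its vehicle PBS. There were 2 libraries for each line and treatment, 8 in all. Per the series title, the study concerns deoxynucleotide pools and the differentiation block of leukaemic cells. All groups were grown in RPMI with dialyzed serum, and each line is 1 established culture model, not patient material. The time of exposure is not given in the sources used here.

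An alpha subunit and ITGB2 must pair inside the cell before either reaches the surface. CD11a with CD18 forms LFA-1, which lymphocytes and most other leukocytes use to bind ICAM proteins. CD11b with CD18 forms Mac-1 or complement receptor CR3, and CD11c with CD18 forms CR4; both bind fragments of complement C3 and rise as myeloid cells mature towards monocytes, macrophages and neutrophils. CD11d, the least studied of these subunits, is found on some tissue macrophages. The receptors are held inactive until talin and kindlin bind the beta tail, a step called inside-out activation. Occupied receptors then signal inwards through kinases of the Src and Syk families.

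The coding sequences of the alpha subunits are related, and this bears on how far reads of 1 gene can be told from those of another. The 45 bases around the codons for the conserved motif next to the membrane (glycine, phenylalanine, phenylalanine, lysine, arginine; in capitals) show the likeness, read on the coding strand from the longest open reading frame of a GENCODE 29 transcript of each gene.
ITGAL: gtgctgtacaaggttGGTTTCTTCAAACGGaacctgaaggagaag
ITGAM: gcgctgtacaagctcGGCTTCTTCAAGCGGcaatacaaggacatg
ITGAX: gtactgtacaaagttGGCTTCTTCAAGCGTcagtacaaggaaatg
ITGAD: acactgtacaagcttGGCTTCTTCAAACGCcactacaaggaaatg
ITGAL was identical to each of the others at 33 of 45 positions, ITGAM to ITGAX at 37, and ITGAD to ITGAM and to ITGAX at 38. Over the whole transcripts, ITGAM and ITGAX shared 21 stretches of 50 bases, ITGAX and ITGAD shared 67, and no other pair of the 5 genes shared any. ITGAM transcripts held 5767 such stretches, ITGAX 7381 and ITGAD 4421, so the shared stretches were a small part of each. Reads from them can still weigh on a gene with few reads beside a partner with many, as ITGAD beside ITGAX.

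ITGAL (ENSG00000005844) lies on the forward strand of chromosome 16 at 30472658 to 30523185 in GRCh38, with 6472 exon bases in the count table. ITGAM (ENSG00000169896) starts 787332 bases further along the same strand and spans 31259990 to 31332892. ITGAX (ENSG00000140678, 31355134 to 31382997) follows 22241 bases after its end, and ITGAD (ENSG00000156886, 31393312 to 31426505) another 10314 bases on, so these 3 genes form a tight row. ITGB2 (ENSG00000160255) lies alone on the reverse strand of chromosome 21 at 44885953 to 44931989. All values are counts or levels of whole genes, summed over their exons.

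Library totals ran from 21053724 to 31135338 counts. Replicates differed by more than counting noise, and the labels do not say whether they were separate cultures. The p-values therefore reflect library-to-library spread that may be technical. Levels are given in CPM, counts scaled to library size after TMM normalization for composition, and, between genes, in RPKM, which also divides by exon length. A gene is called where edgeR's quasi-likelihood test gives a Benjamini-Hochberg adjusted p under 0.05 over the 18314 genes tested; a ± gives the standard error for log2 fold changes and the SD (n = 2) for levels. ITGAL, ITGAM, ITGAX and ITGB2 passed the filter on low counts, and ITGAD did not. Of the markers of each line, CD34 lay at 931 CPM in KG1A PBS and 0.265 CPM in U937 PBS. ELANE, CTSG and AZU1, granule proteins of early myeloid cells, lay at 102, 499 and 152 CPM in U937 PBS and at 0 to 0.172 CPM in KG1A PBS. MPO, the peroxidase of the same granules, was at most 0.162 CPM in any group, so it marks neither line here.

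In KG1A, dG raised ITGAM, ITGAX and ITGB2 and left ITGAL without a called change. In U937 it raised all 4 of the tested genes, and reads counted for ITGAD appeared in U937 dG and in no other group. Among the 4 tested members the ITGAX fold was the highest in both lines, at 10.8-fold in KG1A and 11.4-fold in U937. The ITGAM folds were 7.76 and 5.85, and the ITGB2 folds 1.68 and 2.02. In KG1A 3 of 4 tested members were called, all higher, where 49.1% of all tested genes were called, 29.6% higher and 19.6% lower (5413 and 3581 genes, or 4584 and 4435 with library size alone). In U937 4 of 4 were called, all higher, where 64.0% of all tested genes were called 32.4% higher and 31.5% lower. Calls at least 2-fold higher were fewer, at 5.64% and 9.71% of genes. Since RNA was taken from whole cultures, a higher level in each cell and a larger share of expressing cells cannot be told apart.

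**Figure D1:**
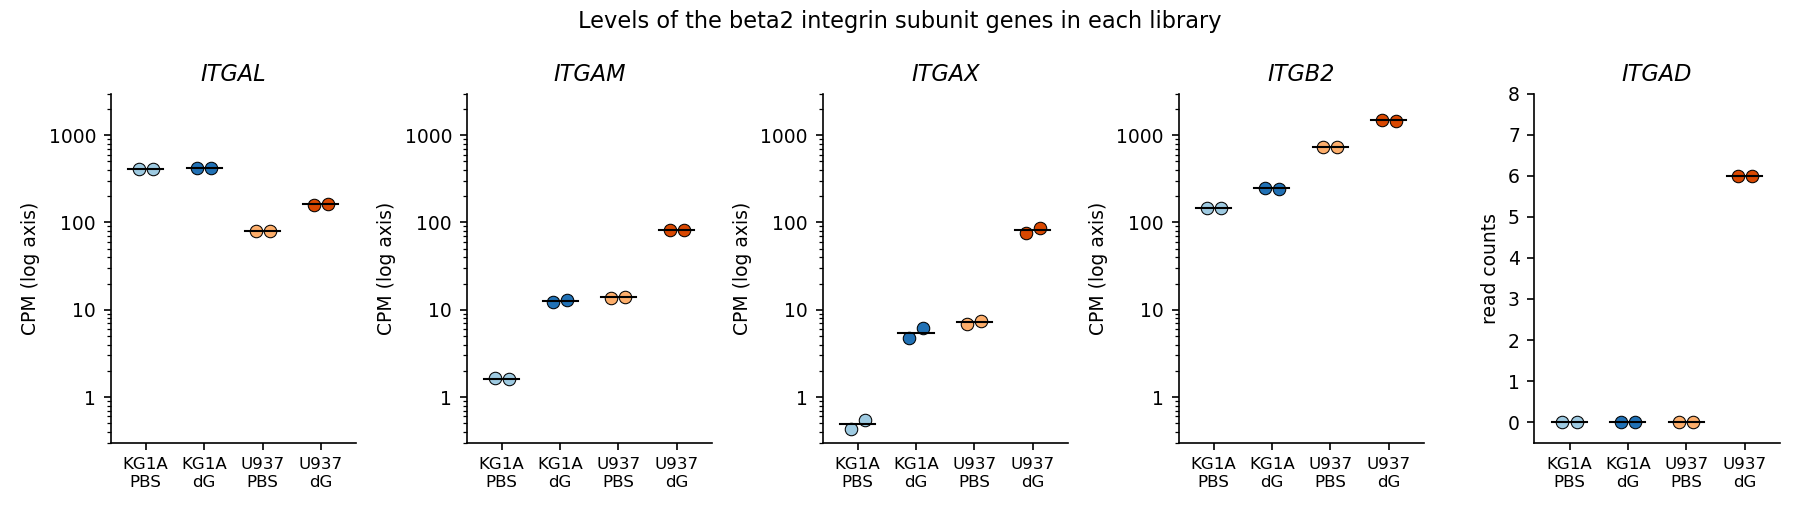
Level of each subunit gene in each of the 8 libraries, in CPM on a log axis for 4 genes and in raw counts on a linear axis for ITGAD; points are libraries (2 per group) and bars their mean. ITGAM and ITGAX in dG lie above PBS in both lines, ITGAL in KG1A lies between 406 and 420 CPM in all 4 libraries, and ITGAD has reads only in U937 dG.

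ITGAL encodes the alpha chain of LFA-1. In KG1A its level was 415 and 406 CPM in PBS and 420 and 418 CPM in dG. In U937 it was 80.8 and 79.9 CPM in PBS and 158 and 164 CPM in dG. The KG1A libraries lay within a narrow band, while in U937 both dG libraries lay clear above both PBS libraries. The KG1A change was 0.03 ± 0.03 on the log2 scale (95% interval -0.04 to 0.09, edgeR adjusted p = 0.484), and its sign turned to negative under 8 of 18 alternative settings, none of which called it. In U937 ITGAL rose by 1.00 ± 0.04 (adjusted p = 5.61e-23). The response was larger in U937 by 0.97 ± 0.05 (adjusted p = 2.28e-18), a difference called under all 16 alternative settings tried. Even so, ITGAL in U937 dG stayed at 161 ± 4.55 CPM, below the 411 ± 6.42 CPM of untreated KG1A.

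ITGAM encodes the alpha chain of CR3, a standard surface marker of myeloid maturation. In KG1A it lay at 1.65 and 1.61 CPM in PBS (38 and 47 reads) and at 12.4 and 13.0 CPM in dG (348 and 321 reads). In U937 it lay at 13.7 and 14.2 CPM in PBS and at 81.1 and 81.3 CPM in dG. The replicates lay close together in every group, and no dG library overlapped a PBS library of its line. ITGAM rose by 2.96 ± 0.16 in KG1A (adjusted p = 2.85e-20) and by 2.55 ± 0.07 in U937 (adjusted p = 7.63e-29). Of all tested genes, 98.9% had a lower log2 fold change in KG1A and 97.7% in U937. The order of the groups was U937 dG, U937 PBS, KG1A dG and KG1A PBS. KG1A in dG reached 91.1% of the level of untreated U937, a pair of groups that was not tested against each other.

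ITGAX encodes the alpha chain of CR4, carried by monocytes, macrophages and dendritic cells. In KG1A PBS it had 10 and 16 reads, with 95% Poisson intervals of 4.80 to 18.4 and 9.15 to 26.0 reads that cover counting error only. These reads make 0.433 and 0.547 CPM. In KG1A dG it lay at 4.73 and 6.14 CPM, in U937 PBS at 6.81 and 7.53 CPM, and in U937 dG at 76.5 and 87.1 CPM. The 4 groups followed the same order as for ITGAM and did not overlap. The gene rose by 3.43 ± 0.32 in KG1A (adjusted p = 1.40e-14) and by 3.52 ± 0.09 in U937 (adjusted p = 2.69e-29). Its log2 fold change ranked 98 from the top of the 18314 tested genes in KG1A and 182 in U937. KG1A in dG came to 75.7% of the level of untreated U937.

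ITGAD encodes CD11d. It had 0 reads in the 2 libraries each of KG1A PBS, KG1A dG and U937 PBS, and 6 reads in each library of U937 dG. The zeros allow levels of up to 0.0574, 0.0567 and 0.0527 CPM per group, from 3 reads summed over a group. In U937 dG the gene was at 0.275 ± 0.023 CPM, and its summed reads came to 5.20 times the U937 PBS limit. Poisson intervals, at the level used for ITGAX, ran from 0.0949 to 0.563 CPM and from 0.107 to 0.634 CPM in the 2 libraries. Counting error was thus much wider than the SD. The ratio of 5.20 leaves out the counting error of the dG reads, so it is not a lower bound of the fold. Both treated U937 libraries held reads, but 12 reads were too few for the gene to enter the test. ITGAX, with which ITGAD shares 67 stretches of 50 bases, had 3569 reads in U937 dG and 406 in U937 PBS. How reads that match several genes were counted is not given. Whether the ITGAD reads came from ITGAX was not tested.

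ITGB2 encodes CD18, without which none of the alpha chains is carried to the surface. In KG1A it lay at 146 and 147 CPM in PBS and at 249 and 242 CPM in dG. In U937 it lay at 738 and 725 CPM in PBS and at 1493 and 1463 CPM in dG. The groups were wide apart compared with the replicates, and both U937 groups lay above both KG1A groups. ITGB2 rose by 0.75 ± 0.03 in KG1A (adjusted p = 4.18e-20) and by 1.01 ± 0.03 in U937 (adjusted p = 1.46e-26). The response in U937 was larger by 0.27 ± 0.04 (adjusted p = 3.90e-06).

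**Figure D2:**
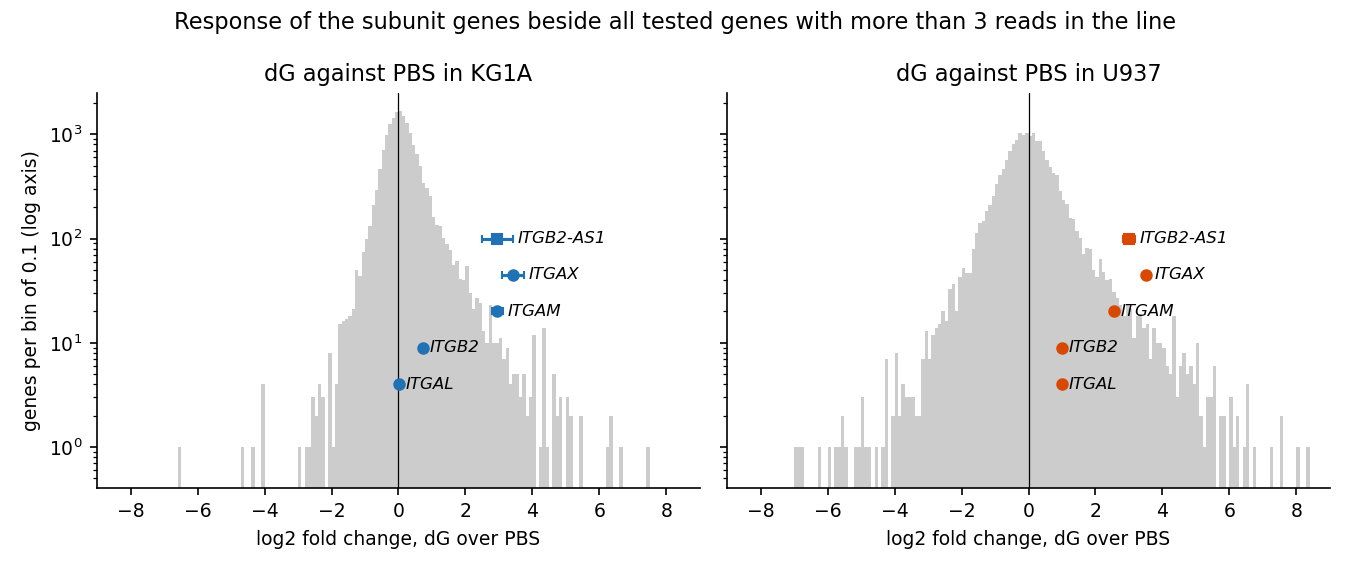
Log2 fold change of dG over PBS in KG1A (left) and U937 (right): grey bars count tested genes with more than 3 reads in a group of that line, in bins of 0.1 on a log axis, and coloured markers with standard error bars are the subunit genes and ITGB2-AS1 (square), set at arbitrary heights. ITGAL sits at 0.03 in KG1A and 1.00 in U937, while ITGAM and ITGAX lie far to the right in both lines.

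An antisense gene, ITGB2-AS1 (ENSG00000227039), lies on the other strand within the ITGB2 locus, at 44921051 to 44929678 of chromosome 21. KG1A libraries held 3 and 8 of its reads in PBS and 48 and 40 in dG. U937 libraries held 47 and 39 in PBS and 284 and 245 in dG. Its log2 fold change was 2.96 ± 0.45 in KG1A (adjusted p = 8.56e-09) and 2.99 ± 0.17 in U937 (adjusted p = 2.09e-19). For every 1000 ITGB2 reads there were 0.892 and 1.86 of the antisense gene in KG1A PBS and 6.85 and 6.66 in dG, and 2.00 and 2.14 in U937 PBS and 8.20 and 8.13 in dG. The ratio was higher in both dG libraries than in both PBS libraries of each line. In GENCODE 29 the antisense gene shares 303 exon bases with ITGB2, 12.4% of its own exons and 4.46% of those of ITGB2. The strand setting of the authors' counting is not given in the sources used here, so reads from that overlap cannot be assigned to a strand and the antisense values are uncertain.

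The response to dG was then compared between the lines within the same model. The difference was called for ITGAL and ITGB2 (higher in U937) and for ITGAM (lower), 3 of 4 tested members. Of all tested genes 44.1% were called, 17.6% (3230) higher in U937 and 26.4% (4841) lower; with DESeq2 size factors 4021 were higher and 3898 lower. ITGAM differed by -0.41 ± 0.17 (95% interval -0.76 to -0.06, adjusted p = 0.0455), a smaller rise in U937. That call was lost under 11 of the 16 alternatives, with adjusted p up to 0.396. The sign turned under 3 others, all on RPKM, and on the log2(RPKM + 1) scale the opposite sign was called (0.91, adjusted p = 6.63e-05). For ITGAX no difference was called (0.09 ± 0.34, interval -0.60 to 0.77, adjusted p = 0.930). The log2(RPKM + 0.1) fit called ITGAX at 1.14 (adjusted p = 0.00362). In KG1A PBS both genes lay below the constant added in these fits, ITGAM at 0.292 RPKM and ITGAX at 0.0705 RPKM. Such an addition lowers their log2 fold changes in KG1A.

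In PBS the lines differed in every tested subunit, in a contrast where 82.3% of all genes were called, 41.4% higher and 40.8% lower. ITGAL was lower in U937, with a log2 fold change of -2.35 ± 0.04 for U937 over KG1A (adjusted p = 2.34e-36). ITGAM was higher in U937 by 3.09 ± 0.16 (adjusted p = 9.66e-23), ITGAX by 3.83 ± 0.32 (adjusted p = 6.00e-18) and ITGB2 by 2.32 ± 0.03 (adjusted p = 1.50e-37). The untreated lines thus stood on opposite sides for CD11a and for the other subunits.

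Dividing by exon length sets the subunits against each other, as far as that length fits the transcripts the cells made. In KG1A PBS, ITGAL stood at 64.5 ± 0.83 RPKM, ITGB2 at 21.9 ± 0.20, ITGAM at 0.292 ± 0.004 and ITGAX at 0.0705 ± 0.0118. In KG1A dG the levels were 62.8 ± 0.35 RPKM for ITGAL, 35.1 ± 0.76 for ITGB2, 2.17 ± 0.07 for ITGAM and 0.745 ± 0.135 for ITGAX. In U937 PBS, ITGB2 stood first at 106 ± 2.34 RPKM, then ITGAL at 12.2 ± 0.22, ITGAM at 2.42 ± 0.04 and ITGAX at 0.998 ± 0.061. The order of the alpha subunits was therefore the same in both lines, and only the place of ITGB2 differed. In U937 dG the levels were 223 ± 5.39 RPKM for ITGB2, 25.5 ± 0.48 for ITGAL, 14.7 ± 0.13 for ITGAM, 11.9 ± 0.97 for ITGAX and 0.0640 ± 0.0047 for ITGAD.

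The ITGAL share of the alpha pool differed more between lines than within KG1A, and more within U937 than between the untreated lines. ITGAL made up 99.4% ± 0.02 of the summed alpha RPKM in KG1A PBS and 95.6% ± 0.31 in KG1A dG. In U937 it made up 78.2% ± 0.81 in PBS and 48.9% ± 0.33 in dG. ITGAM went from 0.450% to 3.30% in KG1A and from 15.4% to 28.2% in U937, and ITGAX from 0.109% to 1.13% and from 6.38% to 22.7%. So the large folds of KG1A added little to a pool that remained nearly all ITGAL, while in treated U937 the CR3 and CR4 chains together were about as abundant as the LFA-1 chain. With 2 libraries a group, an exact permutation test of these shares cannot reach the threshold, and none was made.

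**Figure D3:**
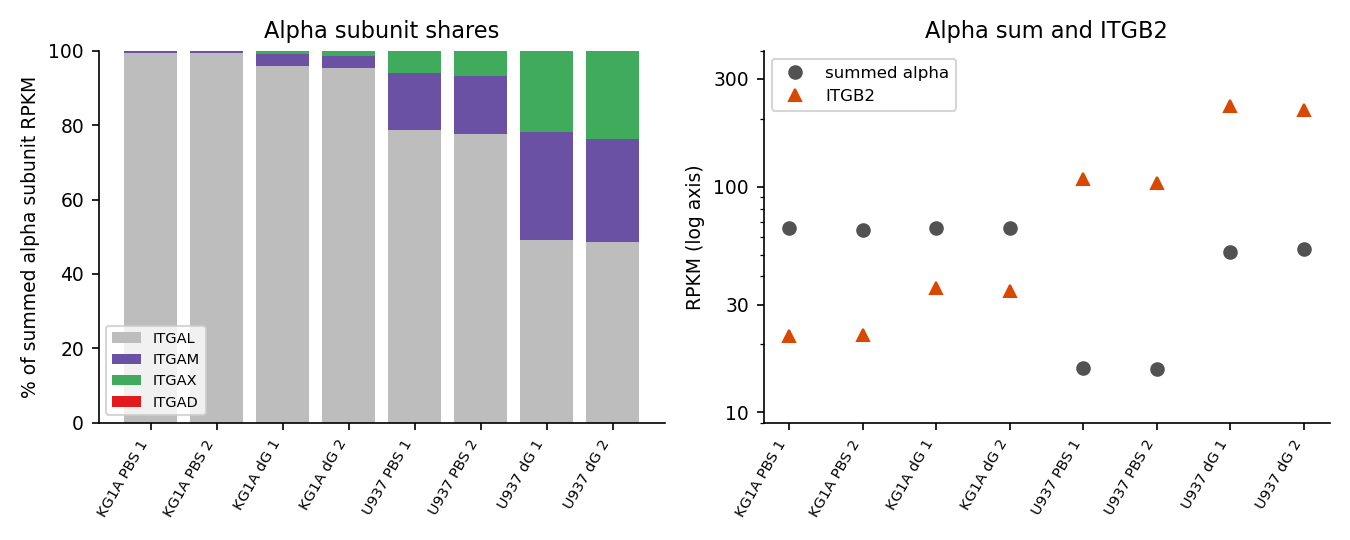
Left, share of each alpha subunit in the summed alpha RPKM (percent, stacked to 100) in each library; right, summed alpha RPKM (circles) and ITGB2 RPKM (triangles) on a log axis. ITGAL fills over 95% of every KG1A bar and 48.9% on average in U937 dG, and ITGB2 lies below the alpha sum in KG1A and above it in U937.

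By RPKM, ITGB2 lay below the summed alpha level in KG1A and above it in U937. The summed alpha level was 64.8 ± 0.82 RPKM in KG1A PBS and 65.7 ± 0.14 in KG1A dG, against 15.6 ± 0.12 in U937 PBS and 52.1 ± 1.33 in U937 dG. ITGB2 per summed alpha was 0.338 ± 0.007 in KG1A PBS and 0.534 ± 0.010 in dG. In U937 it was 6.77 ± 0.10 in PBS and 4.28 ± 0.21 in dG. The ratio was thus higher in dG than in PBS in KG1A and lower in U937, with no overlap between replicates. These are ratios of mRNA, and no protein was measured. They rest on the exon lengths of the count table, 6797 bases for ITGB2 and 6472 for ITGAL. Lengths of the transcripts made in these cells were not measured. Which side is more abundant within a line is therefore less certain than the difference between the lines.

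Markers of other cells were set beside these values, since ITGAM and ITGAX started low in KG1A. Of 12 genes typical of U937-like myeloid cells, 3 had more than 3 reads in untreated KG1A and 4 in treated KG1A. The 12 include MPO and S100A8, which were under 1 CPM in U937 too, and MPO, with 4 reads in KG1A dG, is 1 of those 4. Their summed level was 0.582 to 0.607 CPM and 1.45 to 2.28 CPM. In U937 the sum was 1093 CPM in PBS and 2069 to 2156 CPM in dG. Its largest part there was CTSG, at 499 CPM in PBS and 1121 CPM in dG. Not all of the 12 rose in U937: PRTN3 (197 to 96.9 CPM) and S100A9 (17.1 to 10.7 CPM) were called lower. KG1A held 0.0544% of the U937 sum in PBS and 0.0883% in dG. It held 11.7% and 15.6% of the U937 level of ITGAM and 6.84% and 6.64% of that of ITGAX. The source of the KG1A reads was not tested. ELANE and S100A8 had 0 reads in all KG1A libraries. CTSG, the largest part of the sum in KG1A dG, itself rose in KG1A from 0.172 to 1.19 CPM (adjusted p = 1.56e-07).

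The other marker lists moved in places as well, and their part in the result was not tested. T and NK cell markers (7 genes) summed to 124 to 125 CPM in KG1A PBS and 167 to 175 CPM in dG. In U937 they summed to 122 to 125 CPM and 211 to 219 CPM, nearly all from NKG7, a granule protein gene. Markers of late neutrophils (6 genes) summed to 15.5 to 15.9 CPM in U937 PBS and 49.0 to 52.0 CPM in dG, where FCGR3B stayed at 0. There MMP8, the neutrophil collagenase, rose from 5.30 to 33.4 CPM and CAMP, an antimicrobial peptide gene, from 0.570 to 5.11 CPM. CXCR2, a chemokine receptor and the largest part of the U937 PBS sum, was not called in U937 (9.73 and 10.7 CPM, edgeR adjusted p = 0.256). In KG1A the same list summed to 0.137 to 0.173 CPM in PBS and 0.356 to 0.565 CPM in dG. In KG1A CXCR2 rose from 0.155 to 0.405 CPM (adjusted p = 0.0395), and MMP8 and CAMP were at 0. B cell markers reached at most 8.09 CPM, erythroid markers 0.216 CPM and fibroblast and epithelial markers 4.61 CPM, with HBB, EPCAM and MS4A1 at 0 in all 8 libraries.

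The promoter of ITGAM is shown as that of a member that rose in both lines; it was the 1 member of 5 matched in the RefSeq promoter table (build GRCh38.p14). The 250 bases before its RefSeq start are at chr16:31259725-31259974 on the forward strand, with matches to motifs in capitals. That start lies before the 31259990 of the count table, and the distances below are from the RefSeq start.
ITGAM: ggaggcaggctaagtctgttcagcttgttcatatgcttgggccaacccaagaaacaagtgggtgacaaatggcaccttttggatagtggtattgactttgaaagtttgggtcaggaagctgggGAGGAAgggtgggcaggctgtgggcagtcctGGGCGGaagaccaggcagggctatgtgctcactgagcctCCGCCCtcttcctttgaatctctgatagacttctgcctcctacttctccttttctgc
The searched letters, on both strands, were GAGGAA, the core bound by PU.1-type ETS factors, GGGCGG, the GC box of the Sp1 family, CACGTG, the E-box of MYC, TGANTCA, the AP-1 site, TGTGGT, the RUNX site, and CCGGAAG, the GABP-type ETS site. GAGGAA occurred 1 time, with its first base 127 bases before the start, and is held by 23.6% of the 35116 promoters of this length. GGGCGG occurred 2 times, 96 bases before the start on the forward strand and 57 before it on the reverse strand, and is held by 42.6% of promoters. No match overlapped another, and the other letters did not occur (6.34%, 6.57%, 10.98% and 8.52% of promoters hold them, in the order above). No binding was measured in this series.

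Factors described at the CD11 and CD18 promoters changed in different directions. Of 14 tested, 8 rose and 1 fell in KG1A, where 29.6% of all tested genes were called higher and 19.6% lower (median log2 fold change 0.21, against 0.06 over all tested genes with more than 3 reads in a group of that line). In U937 7 rose and 6 fell, where 32.4% of all genes were called higher and 31.5% lower (median 0.05, against -0.02). RXRA, a nuclear receptor that partners the retinoic acid receptors, rose in KG1A by 0.79 ± 0.06 and RARA by 0.45 ± 0.07. RUNX3 rose there by 0.28 ± 0.04 and CEBPA, a regulator of granulocyte fate, by 0.22 ± 0.07. In U937 CEBPB, a factor of macrophage maturation, rose from 61.7 to 232 CPM (1.91 ± 0.05), and FOS and JUN by 0.41 ± 0.08 and 0.40 ± 0.06, while GABPB1 changed by -0.47 ± 0.05. SPI1, which encodes PU.1, was at 0.276 and 0.524 CPM in KG1A PBS and dG (adjusted p = 0.0708, not called). In U937 SPI1 went from 60.4 to 52.9 CPM (-0.19 ± 0.06, adjusted p = 0.00318). SPI1 was picked out after its values were seen, as was GABPA, the gene that fell in KG1A (-0.12 ± 0.05).

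No tested neighbour on chromosome 16 reached the log2 fold change of ITGAM or ITGAX in either line. Of 21 tested neighbours that start within 250 kb of ITGAM, ITGAX or ITGAD, 3 were called higher and 1 lower in KG1A, and 5 higher and 5 lower in U937. None of these shares was above that over all tested genes, which was 29.6% higher and 19.6% lower in KG1A and 32.4% and 31.5% in U937. The median of the 20 with more than 3 reads in a group of the line was 0.02 in KG1A and -0.02 in U937. The largest changes in KG1A were those of TGFB1I1 (2.05, at 0.0217 and 0.0937 CPM), ZNF843 (-1.23) and PRSS36 (1.14), none of them called. In U937 they were those of ARMC5 (-1.89 ± 0.20), PRSS36 (0.90) and RP11-196G11.3 (0.88), of which ARMC5 was called. Around ITGAL, 4 of 21 were called higher and 5 lower in KG1A, and 4 and 8 in U937. The largest there were AC002310.7 (1.55), SEPT1 (1.01, its symbol stored as a date in the table) and RP11-2C24.9 (0.92, not called) in KG1A, and DCTPP1, a dCTP pyrophosphatase (-1.50 ± 0.08), RP11-2C24.9 (-1.27, not called) and ZNF747 (-0.82) in U937. Around ITGB2, 2 of 10 were called higher and 4 lower in KG1A, and 3 and 7 in U937. Besides the antisense gene, the largest there were LINC01547 (-0.83 ± 0.33) and PTTG1IP (0.52 ± 0.03) in KG1A, and LINC01547 (-2.46 ± 0.43) and SSR4P1 (-2.23 ± 0.46), a pseudogene, in U937. Around both ITGAL and ITGB2, in both lines, the share called lower was above that over all tested genes and the share called higher below it. Few genes lie at each locus, and this was not tested.

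**Figure D4:**
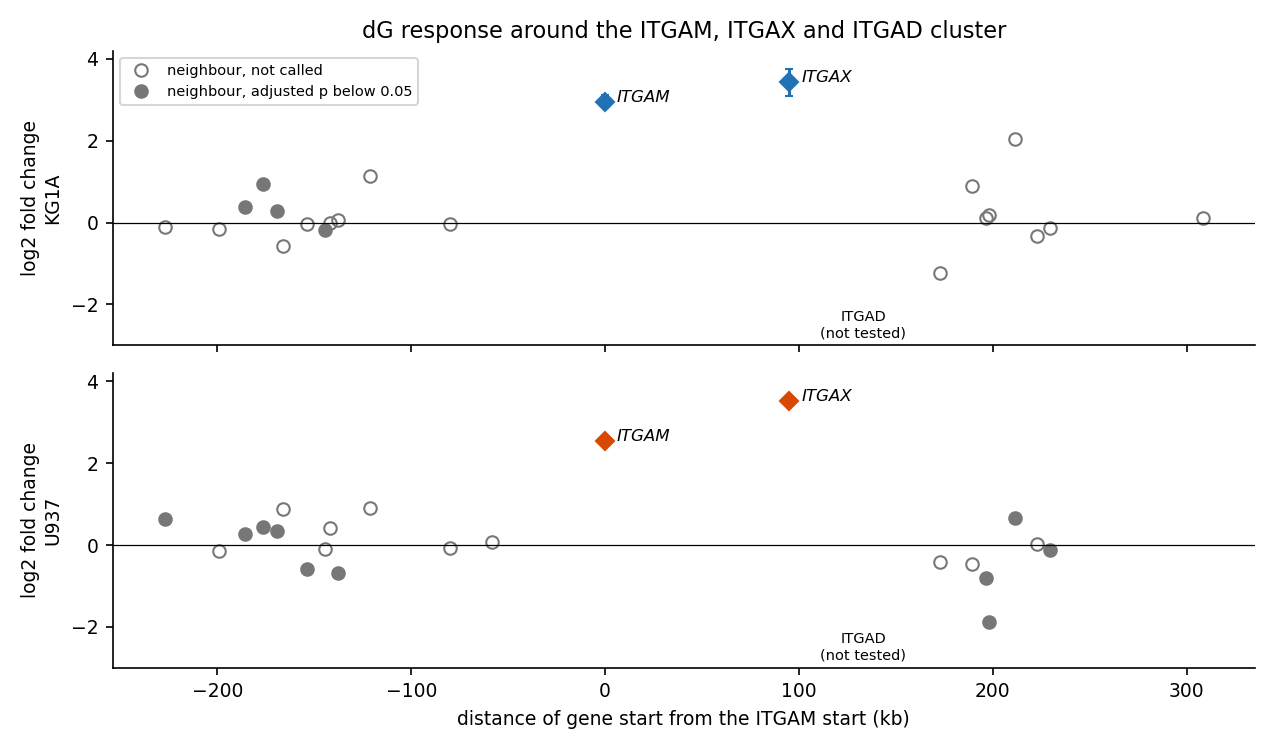
Log2 fold change (dG over PBS) of tested genes around the ITGAM, ITGAX and ITGAD row in KG1A (top) and U937 (bottom) against the distance of their start from the ITGAM start in kb; filled circles are called neighbours, open circles are not called, and diamonds are members with standard errors. Genes with at most 3 reads in both groups of a line are not drawn, and ITGAD is placed without a value because it was not tested; both drawn members lie above all neighbours.

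Of the 9 tested of 15 listed genes for ligands of these receptors, 4 rose and 1 fell in KG1A and 8 rose and 0 fell in U937, beside 29.6% higher and 19.6% lower of all genes in KG1A and 32.4% and 31.5% in U937. The median over those with more than 3 reads was 0.59 in KG1A (6 genes) and 1.02 in U937 (8 genes). ICAM1, the main ligand of LFA-1 and also bound by Mac-1, went in KG1A from 6.89 and 6.50 CPM in PBS to 23.3 and 24.0 CPM in dG, a rise of 1.82 ± 0.09. ICAM2 and ICAM3 rose there by 0.79 ± 0.09 and 0.67 ± 0.05. F11R, the junctional molecule JAM-A, rose by 0.51 ± 0.04 in KG1A and 1.07 ± 0.04 in U937. JAM3 was the gene that fell in KG1A (-0.34 ± 0.10) and was singled out after its values were seen. In U937 C3, the complement component whose fragments CR3 and CR4 bind, went from 16.0 and 14.6 CPM to 206 and 201 CPM (3.72 ± 0.06). FCER2, the low-affinity IgE receptor CD23 and a described ligand of CD11b and CD11c, rose in U937 from 23.9 to 119 CPM (2.32 ± 0.06) and had 0 reads in KG1A. ICAM2 rose in U937 by 1.03 ± 0.13.

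Of the proteins that switch integrins on from inside, 9 of 11 tested rose and 0 fell in KG1A (median 0.35), and 4 rose and 3 fell in U937 (median 0.05). Over all tested genes 29.6% rose and 19.6% fell in KG1A, and 32.4% and 31.5% in U937, so the U937 counts lay near the background. In KG1A FYB1, an adaptor of the SKAP complexes, rose by 1.03 ± 0.05, and CYTH1, cytohesin-1, which binds the CD18 tail, by 0.59 ± 0.04. SKAP2 rose by 0.42 ± 0.04 and TLN1, talin, by 0.38 ± 0.03. In U937 CYTH1 rose by 1.13 ± 0.06, FYB1 by 0.62 ± 0.04 and APBB1IP, the Rap1 effector RIAM, by 0.17 ± 0.05. RASGRP2, the exchange factor that loads Rap1, changed there by -0.50 ± 0.08. Of the restraints of activation, 4 of 7 tested rose in each line, 3 were not called and 0 fell, beside the same shares over all genes. Their medians were 0.36 over 6 genes with reads in KG1A and 0.25 in U937. RASA3 and SIPA1, which switch Rap1 off, rose by 1.16 ± 0.06 and 0.84 ± 0.05 in KG1A and by 0.29 ± 0.04 and 0.38 ± 0.08 in U937. FLNA, filamin A, which competes with talin for the beta tail, rose by 0.55 ± 0.03 and 0.25 ± 0.03. SHARPIN rose in KG1A by 0.18 ± 0.08 and CYTIP, which binds cytohesin-1, rose in U937 by 0.79 ± 0.07.

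Downstream of the receptors, 11 of 17 tested genes rose in each line, with 0 lower in KG1A and 1 lower in U937, beside 29.6% higher and 19.6% lower of all genes in KG1A and 32.4% and 31.5% in U937. The medians were 0.34 over 13 genes with reads in KG1A and 0.36 in U937. FCER1G and TYROBP encode the adaptors FcR gamma and DAP12, which link integrins to Syk. FCER1G rose in KG1A from 0.452 to 1.39 CPM (1.60 ± 0.33) and in U937 from 30.1 to 124 CPM (2.05 ± 0.05). TYROBP went in U937 from 1.32 and 1.04 CPM to 9.36 and 10.9 CPM (3.07 ± 0.21). SYK, the kinase both adaptors recruit, fell in U937 from 385 to 197 CPM, by 0.96 ± 0.03 on the log2 scale. SRC rose in U937 by 1.57 ± 0.20. VCL, the actin linker vinculin, rose by 0.61 ± 0.03 in KG1A and 0.78 ± 0.03 in U937, VAV3 by 0.56 ± 0.04 and 0.36 ± 0.04, and WAS by 0.54 ± 0.05 and 0.19 ± 0.04. Of the membrane partners of CR3, 2 of 4 tested rose and 1 fell in KG1A, and 3 rose and 0 fell in U937, too few to set against the share over all genes. The median of the 3 with reads was 1.35 in KG1A and 1.02 in U937. PLAUR, the urokinase receptor, went in KG1A from 8.97 and 9.20 CPM to 22.8 and 23.8 CPM and in U937 from 39.2 and 40.8 CPM to 109 and 103 CPM. FCGR2A rose in KG1A from 0.112 to 1.35 CPM (3.51 ± 0.58) and in U937 from 48.2 to 69.5 CPM (0.53 ± 0.05). FCGR1A rose in U937 from 1.33 to 2.70 CPM (1.02 ± 0.23), and both encode receptors for IgG. The gene that fell in KG1A was CD14 (0.509 to 0.152 CPM), named after its values were seen.

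**Figure D5:**
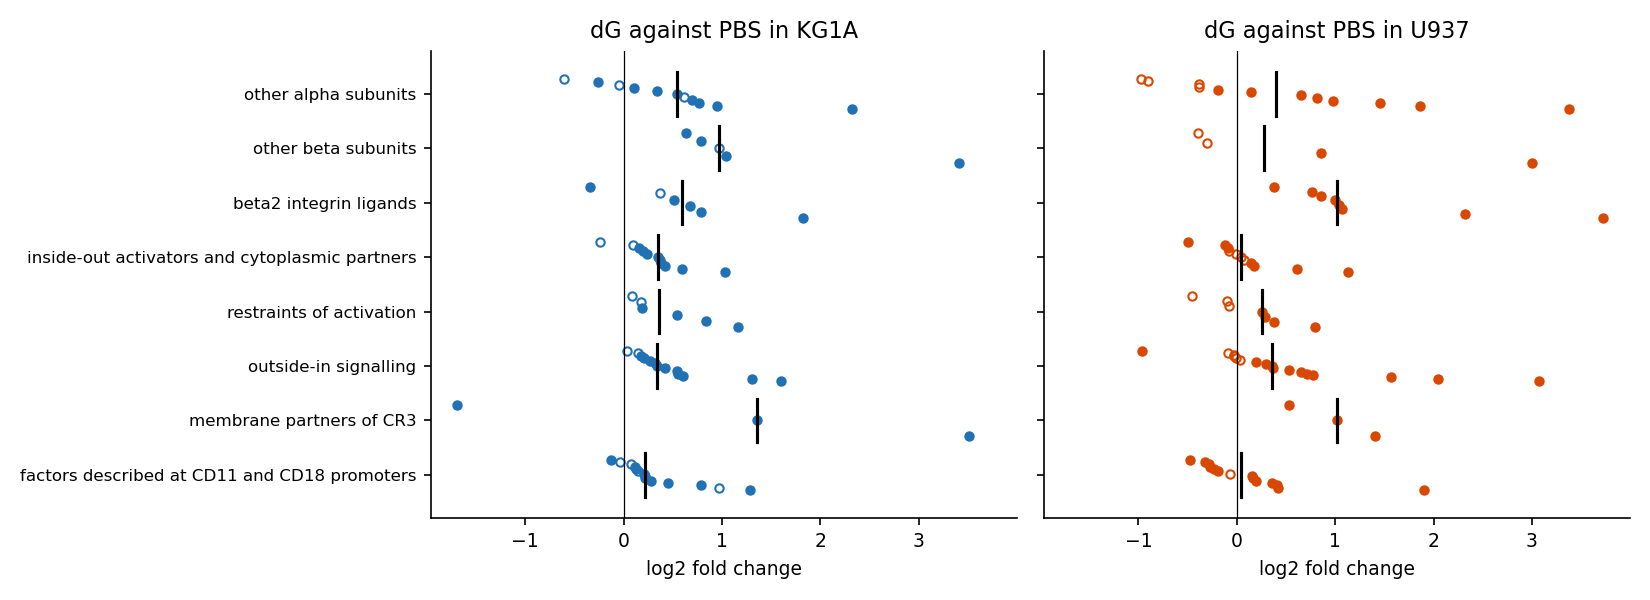
Log2 fold change (dG over PBS) of each tested gene with more than 3 reads in a group of the line, by list, in KG1A (left) and U937 (right); filled points are called, open points are not, and vertical bars are list medians. All drawn ligands of U937 lie to the right of 0, while the promoter factors of U937 fall on both sides of it.

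Of 13 integrin alpha genes outside the beta2 family, 7 rose and 1 fell in each line. Over all tested genes 29.6% rose and 19.6% fell in KG1A, and 32.4% and 31.5% in U937. In either direction 49.1% of all genes in KG1A and 64.0% in U937 were called. The total called in U937 thus lay near the background, though its split by direction did not. The medians were 0.55 over 11 with reads in KG1A and 0.40 over 12 in U937. ITGA2B, the platelet alpha chain CD41, rose in KG1A from 269 to 521 CPM (0.95 ± 0.03), and its partner ITGB3 went from 2.56 and 2.26 CPM to 26.3 and 24.6 CPM (3.41 ± 0.14). ITGB3 had 0 reads in all U937 libraries. ITGA11 rose in KG1A by 2.33 ± 0.46 at a low level (0.254 to 1.27 CPM), ITGA5 by 0.77 ± 0.04 and ITGAV by 0.70 ± 0.04. In U937 the laminin receptor chains ITGA7, ITGA3 and ITGA6 rose by 1.86 ± 0.08, 1.45 ± 0.10 and 0.98 ± 0.03, and ITGAE by 0.82 ± 0.08. The genes that fell, named after their values were seen, were ITGA4 in KG1A (-0.26 ± 0.03) and ITGA5 in U937 (-0.19 ± 0.03). Of 5 other beta genes, 4 rose in KG1A and 2 in U937, and 0 fell in either (medians 0.97 over 5 and 0.28 over 4 with reads, beside 29.6% and 32.4% of all genes called higher). ITGB1 rose in both, by 0.64 ± 0.03 and 0.86 ± 0.03, and ITGB5 in KG1A by 0.78 ± 0.21. ITGB7 rose in U937 by 2.997 ± 0.48 at a low level (0.194 to 1.58 CPM).

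Likeness of pattern was measured as the root mean square difference between the 4 group means of log2(CPM + 0.1), each gene centred on its own mean. ITGAM and ITGAX differed by 0.58, and 12 other genes lay nearer to ITGAM. ITGAM and ITGB2 differed by 0.95, ITGAX and ITGB2 by 1.40, and ITGAL from each of the others by 2.17 to 3.16. The genes most like ITGAM were SIGLEC15 (0.30), a sialic acid receptor, M1AP (0.48), CECR1 (0.52), an adenosine deaminase, and DPEP2 (0.52), a dipeptidase. Those most like ITGAX were DPEP2 (0.64), M1AP (0.65), OSBP2 (0.67) and COL6A3 (0.69), a collagen chain. ITGB2 was most like WDFY1 (0.05), TBC1D9 (0.05), MICA (0.07) and TRIP10 (0.08), and ITGAL like RBM14-RBM4 (0.09), CFLAR (0.10), STAT3 (0.10) and RAPGEF2 (0.11). These are descriptions over 4 groups, with the line difference as the main axis they share.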

How the data were processed

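RNA libraries (Kapa mRNA HyperPrep, per the labels' protocols) of KG1A and U937 cells in dG or PBS were sequenced, and groups were taken from the sample titles. The authors deposited whole-number read counts per gene with coordinates and exon lengths, and an RPKM table. The submitters' processing notes name bcl2fastq 2.18.0.12, TopHat2, HTSeq 0.11.2 and hg38 (GRCh38); the annotation release, strand setting and treatment of reads that match several genes are not given in the sources used here. The deposited RPKM were recomputed from the counts as counts per exon kilobase and TMM-scaled library size, with a largest relative deviation of 4.93e-07 over 33198 genes.

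The two-sided quasi-likelihood F test of edgeR 4.0.16 (R 4.3.3) was applied to the counts after filterByExpr left 18314 of 57992 genes, with TMM factors, 1 model over all 8 libraries and a mean for each line and treatment (4 residual and 31 prior degrees of freedom; common biological coefficient of variation 2.51%). Contrasts were dG against PBS in each line, their difference (U937 minus KG1A) and the PBS groups of U937 against those of KG1A. Benjamini-Hochberg adjustment ran over all genes tested, and standard errors come from the fitted weights and the moderated dispersion. Library totals were 21053724 to 31135338 counts, and reads carry no molecular identifiers. Poisson intervals of counts and the limits of zeros cover counting error only. Intervals of log2 fold changes come from the standard errors and a t quantile, so they also hold spread between libraries. Fits were tested on simulated data. Alternatives used DESeq2 1.42.0, limma 3.58.1 on log2(RPKM + 0.1) or log2(RPKM + 1), library size alone, no filter, a replicate block, a line fitted alone and each library left out.

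The members, the 8 lists of 93 genes and the marker lists were chosen with earlier results of these data known. Named list genes were, per list and line, up to 4 called genes with the largest absolute change and a mean of at least 1 CPM in a group; exceptions are marked. Neighbours were named by largest absolute change (up to 3 per locus and line, among genes with more than 3 reads in a group of that line), and like genes as the 4 nearest in pattern. List medians leave out genes with at most 3 reads in each group used. GENCODE 29 supplied exons and transcripts and held 57388 of the identifiers.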

Additional observations from a re-analysis of the deposited data

Results flagged for a closer look

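The dG effect differed between the lines by the test of the difference itself for 3 of the 4 tested members. In that test 44.1% of all tested genes were called, 17.6% higher in U937 and 26.4% lower. For ITGAL the U937 effect was larger by 0.97 on the log2 scale, with both U937 dG libraries above both PBS libraries. For ITGB2 it was larger by 0.27, with dG above PBS in 2 of 2 libraries of both lines. For ITGAM the value was -0.41, a smaller rise in U937, and this call was lost or turned under 14 of 16 alternatives.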

How the results depend on the processing

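The calls of ITGAM, ITGAX and ITGB2 in KG1A held under all 18 alternatives, those of the 4 tested members in U937 under all 17 and those between the lines in PBS under all 16. RPKM pseudocounts lowered the KG1A folds, to 1.29 for ITGAM and 0.70 for ITGAX. With log2(RPKM + 1) and no filter, 5 members differed between the lines in place of 3. These 5 include ITGAD, which had 12 reads in U937 dG and 0 in every other group, too few for the main test. ITGAL in KG1A turned negative, and stayed uncalled, with KG1A fitted alone (-0.0306), library size alone (-0.0353), no filter (-0.0385), log2(RPKM + 0.1) (-0.0386) and log2(RPKM + 1) with or without the filter (-0.0381). With 1 library left out it ran from -0.0372 to 0.0411, negative without either U937 dG library. The ITGAM difference was 0.0255 with log2(RPKM + 0.1) (adjusted p = 0.847) and 0.91 with log2(RPKM + 1), with or without the filter. It was -0.31 with DESeq2 and with its size factors, -0.28 without the filter, -0.41 with the replicate block (adjusted p = 0.0571) and -0.44 to -0.28 with 1 library left out, called in 1 of those 8 fits. The ITGAX difference ran from -0.11 to 0.31 with 1 library left out, negative without KG1A PBS replicate 2 or KG1A dG replicate 1, and was 1.98 with log2(RPKM + 1). The ITGB2-AS1 difference ran from -0.64 to 0.41 with 1 library left out, negative without KG1A PBS replicate 2, KG1A dG replicate 2 or U937 PBS replicate 1, and was 1.30 with log2(RPKM + 1). The cause was not tested.

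Alpha shares from counts without the length term were 99.5% for ITGAL and 0.394% for ITGAM in KG1A PBS, and 2.90% for ITGAM in KG1A dG. In U937 PBS they were 79.2%, 13.7% and 7.07% for ITGAL, ITGAM and ITGAX, and in U937 dG 49.6%, 25.1%, 25.2% and, for ITGAD, 0.0848%. In KG1A the split of higher against lower calls was also more even with KG1A fitted alone (4605 and 4393), no filter (4427 and 4279) and log2(RPKM + 1) (4085 and 4202). With 1 library left out, 7474 to 9028 genes were called in KG1A and 10492 to 11934 in U937. The same replicate number did not pair libraries: deviations correlated at -0.149 in KG1A and 0.0224 in U937. The replicate block called 8742 genes in KG1A, 11530 in U937, 7835 for the difference and 14962 between lines in PBS, and changed no member's call but that of the ITGAM difference; the crossed pairing, added after seeing the data, called 9181 in KG1A. Depth limits ITGAX and ITGB2-AS1 in KG1A PBS and ITGAD throughout.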
